A study of Rattus norvegicus with 9 samples.

Results

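The genes described here encode proteins of the cytosolic ribosome, the particle that translates messenger RNA. They were taken as 58 gene identifiers listed by name, a list chosen with earlier results of these data known. All 58 were present among the 17862 features measured in every sample. The deposited values are keyed by identifier alone, so the symbols are those of that list. It holds 31 proteins of the large subunit, 24 of the small subunit, and the 3 proteins of the large subunit's stalk (Rplp0, Rplp1 and Rplp2).

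RNA from kidney was sequenced in 9 samples, 3 in each of 3 groups, all at 6 weeks of age. The WT group was labelled normal, the Model group hypertensive, and the QDG group hypertensive and given Qingda granule, a Chinese herbal preparation. The sources used here give neither the strain, the origin of the hypertension nor the dose and timing of the granule. They also do not state that replicates were different animals, so each p-value reflects the spread among the libraries at hand, which could be technical. The series set out to find genes and pathways that differed among the groups. The labels name the rat, whereas 17553 of the 17862 identifiers are of the mouse form and the other 309 are not, so each value is the value of a mouse-named feature in a sample labelled as rat. Kidney marker genes were not analysed here, because no table at hand pairs these identifiers with symbols beyond the 58.

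A ribosome needs its proteins in fixed proportion, and their genes are among the most highly expressed in most cells. Many of their messenger RNAs begin with a C followed by a run of pyrimidines, a feature called a terminal oligopyrimidine (TOP) motif, through which the growth kinase complex mTORC1 sets how efficiently they are translated. Demand for ribosomes goes with cell growth, and in the kidney this pathway is known for its part in tubular hypertrophy. Several of the proteins also act outside the ribosome or are targets of signalling kinases.

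The start-site sequences below show a feature that was more frequent in this family than among all promoters. They are rat RefSeq sequences on the GRCr8 build, where 46 of the 58 symbols had an entry, and each is 30 bases long on the strand of the gene, 5′ to 3′, with the first transcribed base as annotated at position 16. Capitals mark the longest run of C and T that touches the stretch from 10 bases before to 10 bases after that base. The 6 genes shown first are the 3 most abundant members (Rplp1, Rps15 and Rplp0) and 3 others with a run across the start (Rpl14, Rpl31 and Rpl34), the next is the kinase target Rps6, which has no such run, and the last 2, Rps10 and Rpl24, are the members with the lowest values.
Rplp1, chr8:71290858-71290887, minus strand: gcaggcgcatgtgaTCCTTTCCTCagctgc
Rps15, chr7:10068101-10068130, minus strand: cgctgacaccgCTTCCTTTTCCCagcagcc
Rplp0, chr12:46718376-46718405, minus strand: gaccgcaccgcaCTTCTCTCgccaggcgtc
Rpl14, chr8:129163605-129163634, plus strand: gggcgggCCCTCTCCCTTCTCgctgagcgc
Rpl31, chr9:49143096-49143125, plus strand: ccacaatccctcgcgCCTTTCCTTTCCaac
Rpl34, chr2:221962269-221962298, minus strand: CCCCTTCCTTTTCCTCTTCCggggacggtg
Rps6, chr5:106420526-106420555, minus strand: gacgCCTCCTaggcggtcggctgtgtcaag
Rps10, chr20:5700730-5700759, minus strand: gccgcgcacgCCCCTTCCTTTCCagcctcc
Rpl24, chr11:58128391-58128420, minus strand: gaatttagggaggagaTTCTCTaccctata

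A C at the first base followed by 4 pyrimidines was present in 16 of the 46 members (34.8%), against 2.63% of 27457 promoters with distinct symbols. A run of 8 or more pyrimidines within 10 bases of the start was present in 32 members (69.6%) and in 13.5% of all promoters, and a run of 10 or more in 28 members (60.9%) against 6.73%. The letters CTTTCC, which often fall inside such a run, lay within 50 bases of the start on the gene strand in 18 members (39.1%) against 4.55% of all promoters, and on either strand in 19 (41.3%) against 8.86%. CCGGAA, the core letters of sites bound by Ets-family factors, was found on either strand of the 300-base window in 24 members (52.2%) against 15.8%. TATAA on either strand of the 50 bases before the start was found in 6 (13.0%) against 6.12%. These are matches of letters to an annotated start, and a start placed a few bases away would change them, so a missing match, as for Rps6, describes only this window.

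Reads in the listed features were similar in number among the libraries, whereas their scaling to FPKM was less even. Whole reads and feature lengths could be recovered from the steps of the values for 17859 of 17862 features (99.98%), giving 23980815 to 26945851 reads in the listed features. A single read per kilobase was worth 0.0318 to 0.0382 FPKM (fragments scaled to feature length and library size). The lowest worth was in WT 3 and the highest in WT 1, with Model 3 at 0.0373. Summed over all features, FPKM ran from 370527.5 in WT 3 to 489773.2 in Model 3. Levels in FPKM carry this difference, which the shares of summed FPKM given below do not. Chi-square per degree of freedom between libraries of a group was 11.1 to 59.1, so no library of a group was a duplicate of another in that group. Over features, log2(FPKM + 1) had a median SD of 0.19 across the WT libraries, 0.15 across the Model libraries and 0.09 across the QDG libraries.

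Levels per length placed most of the 58 genes near the top of the kidney's RNA. Their means over the 9 libraries ran from 0.961 FPKM (Rps10) to 991 FPKM (Rplp1), with a median of 167 FPKM. A mean of 100 FPKM or more was reached by 42 members, whereas 4.4% of the features tested reached it, 13 members lay between 20 and 100 FPKM, and 3 lay under 20. The 55 members of at least 20 FPKM had 1153 or more reads in every library, so counting error was small for them. Features were tested where their mean was at least 1 FPKM, which kept 12187 features and 57 of the 58 members and left out Rps10.

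**Figure D1:**
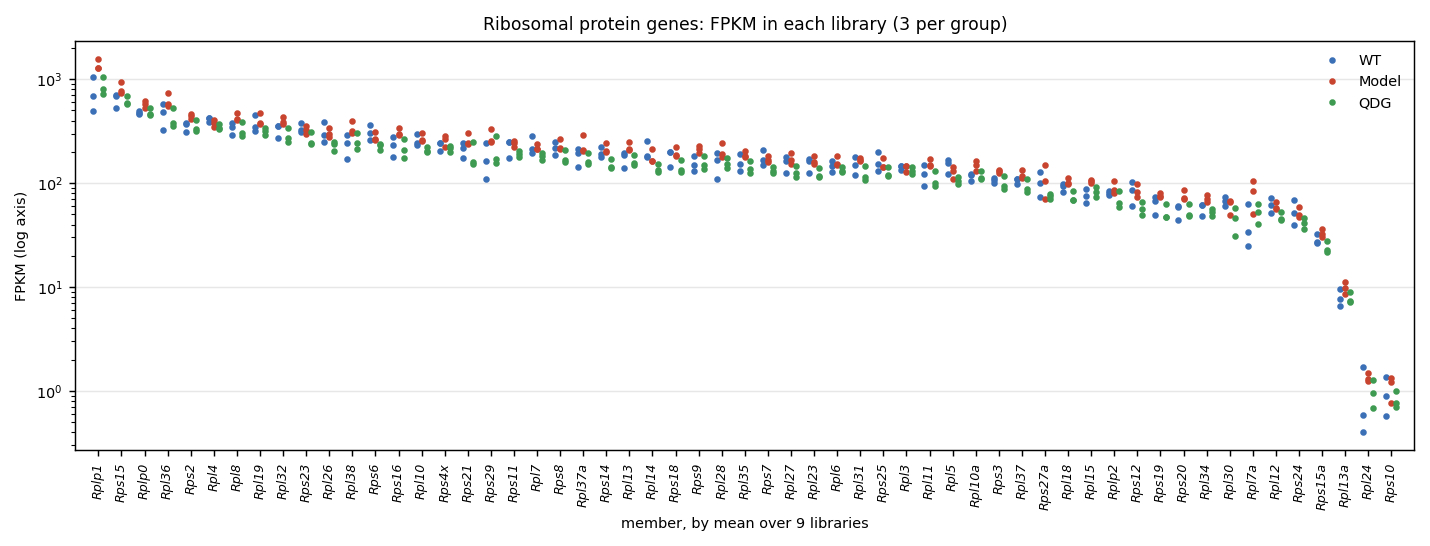
FPKM of 57 of the 58 ribosomal protein genes (log axis) in each of the 9 libraries, coloured by group and ordered by mean. Rplp1 has the highest mean at 991 FPKM, and Rpl13a, Rpl24 and Rps10 stand below all others.

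The stalk protein Rplp1 was the most abundant member. With Rplp2 it forms dimers that hang from Rplp0 and recruit the elongation factors that drive translation. Rplp1 (ENSMUSG00000007892) stood at 687, 498 and 1047 FPKM in WT 1 to 3, at 1284.5, 1279 and 1549.8 in Model 1 to 3, and at 1058, 796 and 721 in QDG 1 to 3. Rplp0 (ENSMUSG00000067274), its anchor, stood at 497, 464 and 468 FPKM in WT, 580.4, 531 and 615 in Model and 523, 454 and 461 in QDG. Rplp2 (ENSMUSG00000025508) stood at 84.1, 77.5 and 80.7 FPKM in WT, 80.9, 86.0 and 104 in Model and 84.2, 59.4 and 64.0 in QDG. Rplp1 and Rplp0 were highest in the Model libraries, every Model value lying above every WT and QDG value, whereas the Rplp2 values of Model overlapped those of both other groups. Rps15 (ENSMUSG00000063457), a small-subunit protein near the decoding site, came next in mean level at 691 FPKM. It stood at 693, 527 and 707 FPKM in WT, 743.5, 764.5 and 937 in Model and 681, 583 and 585 in QDG, again with Model above both other groups.

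The 3 members with very low values stood apart from the rest. Rpl13a (ENSMUSG00000074129), which also acts outside the ribosome in a complex that represses translation of some inflammatory messenger RNAs, stood at 9.66, 6.60 and 7.61 FPKM in WT, 9.87, 8.50 and 11.2 in Model and 9.02, 7.24 and 7.37 in QDG. Rpl24 (ENSMUSG00000098274), a protein of the bridge between the subunits, stood at 0.593, 0.406 and 1.70 FPKM in WT, 1.32, 1.26 and 1.48 in Model and 1.28, 0.962 and 0.686 in QDG. Rps10 (ENSMUSG00000052146), a protein of the small-subunit head, stood at 0.892, 0.576 and 1.38 FPKM in WT, 0.767, 1.34 and 1.23 in Model and 0.708, 0.769 and 0.993 in QDG. These values rest on 367 to 634 reads for Rpl13a, 11 to 55 for Rpl24 and 35 to 100 for Rps10, and the groups overlapped for all 3. Ribosomal protein genes have many processed copies, and the rat RefSeq annotation names 683 pseudogene entries after the 58 members, among them 12 for Rpl13a, 7 for Rpl24, 17 for Rps10 and 36, the most, for Rps2. The sources used here do not say how reads shared by a gene and its copies were counted, so levels of single members are uncertain to an extent that was not tested.

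As a group, the 58 genes had their largest mean share of expression in Model. Their summed level was 12202, 9635.6 and 11899 FPKM in WT 1 to 3, 12824, 12556 and 15065 in Model 1 to 3, and 11613, 9336.4 and 9375.9 in QDG 1 to 3. As a percent of each library's summed FPKM, the WT group averaged 2.68% ± 0.471, Model 3.04% ± 0.0964 and QDG 2.45% ± 0.293 (SD, n = 3). The 3 Model libraries held 2.93%, 3.12% and 3.08%, the QDG libraries 2.77%, 2.36% and 2.20%, and the WT libraries 2.52%, 2.31% and 3.21%. Model and QDG did not overlap, while WT spanned nearly the range of both. As a percent of recovered reads, which does not weight by length, the groups were 2.15% ± 0.276, 2.31% ± 0.115 and 1.84% ± 0.176. After quantile normalization the shares of summed FPKM were 2.83% in WT, 2.88% in Model and 2.51% in QDG, so the gap between Model and WT nearly closed. In whole kidney, fewer cells making much of these transcripts and less of them per cell cannot be told apart.

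The members varied together from library to library. Measured as log2(FPKM + 1) minus each member's mean over the 9 libraries, the median of the 57 members tested was 0.09, −0.22 and 0.05 in WT 1 to 3, 0.15, 0.12 and 0.35 in Model, and 0.01, −0.31 and −0.29 in QDG. Model 3 was the highest library for 39 of the 57, and QDG 2 was the lowest for 29. Model 3 also had the largest summed FPKM over all features, whereas WT 3, with the smallest, was the lowest library for 0 members. Members above their own mean numbered 40, 15 and 38 in WT, 52, 46 and 57 in Model, and 30, 0 and 1 in QDG. QDG 1 therefore stood apart from the other QDG libraries and WT 2 from the other WT libraries. Other features of 20 to 1000 FPKM had medians of −0.03, −0.06 and −0.14 in WT, 0.11, 0.02 and 0.21 in Model and 0.05, −0.06 and −0.07 in QDG. Over the 9 libraries, the r of a member with the mean of the other members had a median of 0.89, a range of 0.44 to 0.99 and exceeded 0.8 for 38 members. The 494 other features of 100 FPKM or more correlated with the members' mean at a median r of 0.43, and 68 of them (13.8%) passed 0.8, with the highest at 0.98 and the fifth at 0.97. All of these correlations share the 9 libraries and their scaling, and none of the 5 most alike features had a symbol.

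**Figure D2:**
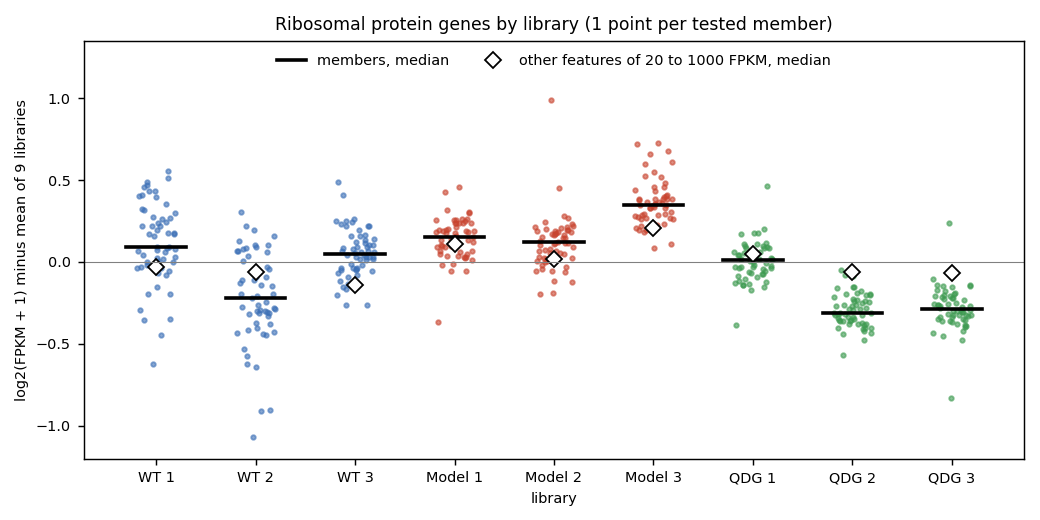
Log2(FPKM + 1) of each of the 57 ribosomal protein genes tested, minus its mean over the 9 libraries, by library; bars are the members' medians and diamonds the medians of other features of 20 to 1000 FPKM. The members' medians are 0.15, 0.12 and 0.35 in Model 1 to 3 and 0.01, −0.31 and −0.29 in QDG 1 to 3.

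Length moved with the libraries as well. Across all features, Spearman's rho between length and deviation was −0.05, 0.37 and 0.12 in WT 1 to 3, −0.16, −0.25 and −0.48 in Model and −0.07, 0.30 and 0.27 in QDG, so short features were relatively high in Model 3 and relatively low in WT 2, QDG 2 and QDG 3. The recovered lengths of the members had a median of 1906 bases (383 for Rpl36 to 6270 for Rps15a), against 3865 bases for the features tested. These are the lengths by which the values were scaled, and they need not be the lengths of the transcripts present, which were not measured. After a trend on length was removed in each library, the members' medians were 0.12, −0.12 and 0.11 in WT, 0.08, 0.06 and 0.17 in Model, and −0.01, −0.25 and −0.24 in QDG. The spread among libraries was smaller, and the QDG medians still lay below the Model medians.

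The comparison of Model with WT asks what hypertension went with in these kidneys. No member passed the test: 0 of 57 had an adjusted p under 0.05 (limma, Benjamini-Hochberg over 12187 features), where 7.90% of all features tested did, and the lowest adjusted p was 0.0518, for Rplp1. At an unadjusted p under 0.05, 12 members were higher in Model (21.1%, against 17.8% of all features) and 0 lower (against 10.2%), and with voom on recovered reads the adjusted count was 0 or 1 according to the scaling. The count of 12 higher and 0 lower became 1 and 10 after quantile normalization, where 13.4% of all features were higher and 12.8% lower. With the length trend removed it was 6 and 4, where 12.4% of all features were lower and 26.3% were on either side. With an equal sum of FPKM (a scaling chosen after seeing the data) it was 5 and 1, against 11.2% and 10.3% of all features. Leaving out WT 2 left 2 higher, leaving out Model 3 left 3 and leaving out Model 1 left 7, where 15.3%, 13.5% and 15.2% of all features were higher. It was 20 without WT 3 (18.4% of all features). The median log2 difference of the members was 0.20 (range −0.21 to 1.01) against 0.02 over all features, with 44 above 0 (53.0% of all features were) and 13 below, but it was −0.02 after quantile normalization (27 above 0 and 30 below) and 0.05 after the length trend was removed. All 3 Model values lay above all 3 WT values for 18 members (31.6%), against 17.3% of all features, and below them for 0, against 10.9%. Other features of 20 to 1000 FPKM had the same median as the 55 members in that range, 0.19, and 33.1% of them had Model wholly above WT against 32.7% of the members. Unadjusted p under 0.05 on the higher side was less frequent in the members of that range, 21.8% against 33.3%, and adjusted calls numbered 0 of 55 against 329 of 2307. With only the Model and WT groups fitted, 0 of 57 members were called, where 1.18% of all features were. The lowest adjusted p of a member was then 0.108 (limma), for Rplp1. At an unadjusted p under 0.05, 9 members were higher in that fit, where 14.4% of all features were.

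The medians were alike across the parts of the ribosome, at values of 0.20 for the 31 large-subunit genes, 0.16 for the 23 small-subunit genes tested and 0.27 for the 3 stalk genes.

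Rplp1 had the smallest p, with a log2 difference of 0.94 (SE 0.26; 95% interval 0.37 to 1.52) and every Model value above every WT value. Rpl15 (ENSMUSG00000012405), a core protein of the large subunit that is needed for its assembly, stood at 75.1, 64.4 and 88.7 FPKM in WT, 108, 99.2 and 104 in Model and 92.4, 81.4 and 73.5 in QDG. Its Model libraries lay above all others, with a log2 difference of 0.45 (SE 0.14; limma adjusted p = 0.0717). Rpl7a (ENSMUSG00000062647), of the large subunit, stood at 33.9, 24.6 and 62.7 FPKM in WT, 50.7, 106 and 83.7 in Model and 53.1, 40.3 and 62.3 in QDG. It had the largest log2 difference, 1.01 (SE 0.34; limma adjusted p = 0.091), and WT 3 lay above Model 1. Without WT 3, 6 members passed the test as higher in Model (Rpl7a, Rpl15, Rpl24, Rplp1, Rps9 and Rps29). That is 10.5% of the members, where 12.5% of all features were called without WT 3, so their share was not above that of other features.

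Among the small-subunit genes, Rps20 and Rps9 had the smallest p. Rps20 (ENSMUSG00000028234), a protein of the subunit's head, stood at 60.8, 44.0 and 59.5 FPKM in WT, 72.4, 69.7 and 86.7 in Model and 62.8, 49.0 and 47.9 in QDG. Rps9 (ENSMUSG00000006333), whose bacterial counterpart bears on the accuracy of decoding, stood at 149, 131 and 184 FPKM in WT, 211, 196 and 227 in Model and 182, 148 and 136 in QDG. For both, Model lay wholly above WT, by 0.48 (SE 0.16; limma adjusted p = 0.0919) and 0.46 (SE 0.16; limma adjusted p = 0.0979) on the log2 scale. Rps29 (ENSMUSG00000034892), a small zinc-binding protein, stood at 162, 110.2 and 241 FPKM in WT, 254, 249.6 and 331 in Model and 286, 170.1 and 158 in QDG. Its log2 difference was 0.76 (SE 0.29; limma adjusted p = 0.129), and WT 3 stood just below Model 2. Rps16 (ENSMUSG00000037563), whose tail reaches the peptidyl site, stood at 233, 179.9 and 276 FPKM in WT, 293, 299 and 337 in Model and 263, 206 and 176 in QDG, a log2 difference of 0.45 between Model and WT.

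Of the large-subunit genes that follow, Rpl38 (ENSMUSG00000057322) is known for its part in translating Hox messenger RNAs. It stood at 242, 172 and 292 FPKM in WT, 316, 305 and 392 in Model and 304, 241 and 212 in QDG, a log2 difference of 0.55 (SE 0.21; limma adjusted p = 0.127). Rpl10a (ENSMUSG00000037805) stood at 120.2, 105 and 123 FPKM in WT, 149, 132 and 162 in Model and 131, 113 and 109.8 in QDG. Rpl34 (ENSMUSG00000062006), shown above with a run of pyrimidines across its start, stood at 62.2, 48.2 and 61.4 FPKM in WT, 70.3, 66.1 and 76.6 in Model and 56.6, 52.5 and 48.4 in QDG. Model lay wholly above WT for all 3, and the log2 differences of Rpl10a and Rpl34 were 0.34 and 0.31.

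A smaller group of members had the opposite sign. Rps6 (ENSMUSG00000028495), the small-subunit protein phosphorylated by S6 kinase downstream of mTORC1 and by the RSK kinases downstream of ERK, stood at 361, 305 and 260.3 FPKM in WT, 264, 257 and 310.3 in Model and 237, 208 and 231 in QDG. Rpl5 (ENSMUSG00000058558), which with Rpl11 binds the ubiquitin ligase Mdm2 when ribosome assembly is disturbed, stood at 166, 155 and 122 FPKM in WT, 129.5, 109.5 and 143.5 in Model and 116, 98.8 and 104 in QDG. Rpl14 (ENSMUSG00000025794), a large-subunit protein, stood at 252, 179 and 183 FPKM in WT, 164, 164 and 215 in Model and 154, 127 and 134 in QDG. For these 3 the order of the group means was WT, Model, QDG, with Model against WT at −0.15, −0.21 and −0.17 on the log2 scale and the values overlapping. Rpl4, which lines the tunnel through which the new peptide leaves, stood at 428, 423 and 386 FPKM in WT, 382, 347 and 409 in Model and 372, 330.4 and 342 in QDG. Model against WT was −0.12 for Rpl4 and −0.15 for Rpl30, another large-subunit protein. None of the 5 passed the test, with limma adjusted p from 0.392 (Rpl5) to 0.668 (Rpl30), although after quantile normalization Rpl4 and Rpl5 passed as lower in Model, 3.51% of the members where 5.86% of all features were called.

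**Figure D3:**
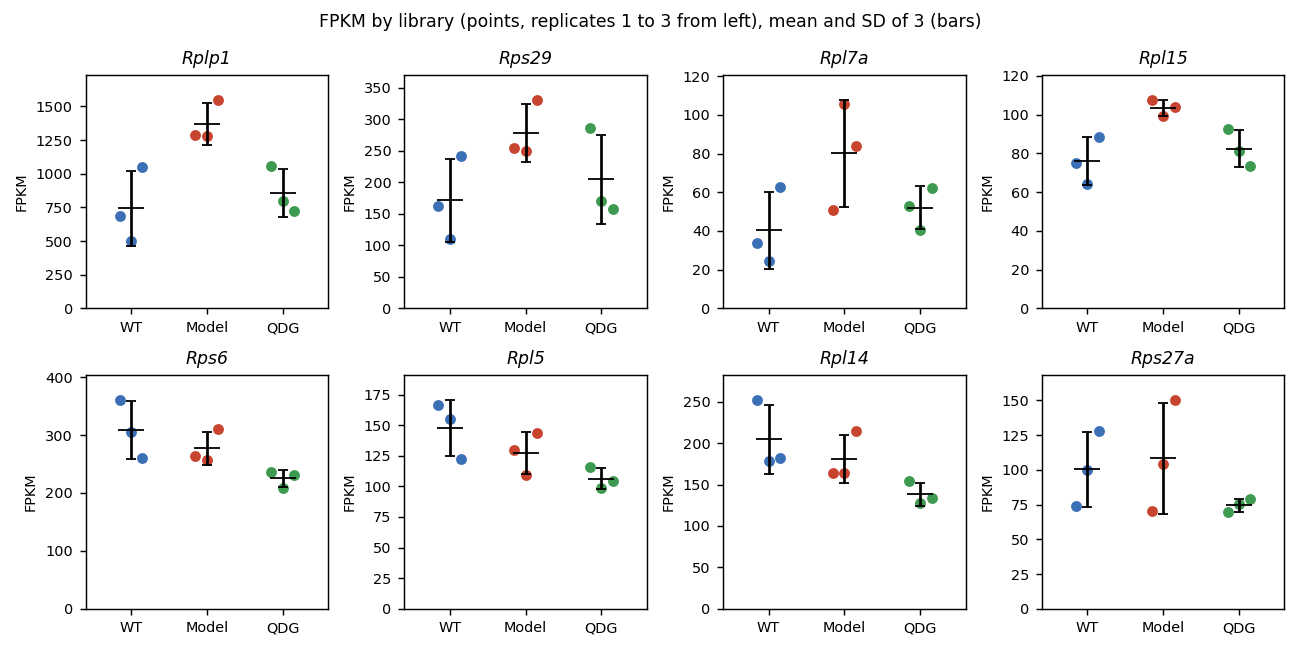
FPKM of 8 ribosomal protein genes in each library (points, replicates 1 to 3 from left to right within a group), with the mean and SD of 3 (bars); each axis starts at 0. Rplp1 and Rpl15 have all Model points above all WT points, whereas Rps6, Rpl5 and Rpl14 have their lowest group mean in QDG and their highest in WT.

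The comparison of QDG with Model asks what the granule went with in hypertensive kidneys. No member passed the test, 0 of 57 (limma, adjusted p), and neither did any other feature, the share called being 0% and the lowest adjusted p of a member 0.289. The log2 difference was below 0 for 57 of 57 members, against 53.5% of all features, and for 55 after quantile normalization, 56 with the length trend removed and 56 with an equal sum of FPKM. The median was −0.40 (range −0.69 to −0.08) against −0.02 over all features, and −0.20 after quantile normalization. At an unadjusted p under 0.05, 34 members (59.6%) were lower in QDG, against 9.64% of all features, and 0 were higher, against 4.27%; voom gave 0 adjusted calls under both scalings. All 3 QDG values lay below all 3 Model values for 44 members (77.2%), against 16.3% of all features. The Model libraries are shared with the comparison above, so a high Model library enters both with opposite sign. In each comparison the members varied together over the same libraries, so counts of members are not counts of separate observations.

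Large-subunit, small-subunit and stalk genes had medians of −0.39, −0.44 and −0.39, and the QDG values lay wholly below Model for 24 of 31, 18 of 23 and 2 of 3. Against other features of 20 to 1000 FPKM the members were further from 0, with a median of −0.41 against −0.14, and 80.0% wholly lower against 30.6%. Classes of recovered length narrowed this gap for short features and not for long ones, and transcript length itself was not matched. Among features under 1000 bases in that range, the median was −0.48 for 8 members and −0.39 for 275 others; from 1000 to 2000 bases it was −0.39 for 21 and −0.27 for 504. From 2000 to 4000 bases the medians were −0.36 for 20 members and −0.11 for 930 others, and at 4000 bases or more −0.46 for 6 and 0.01 for 598. All 6 of those long members had QDG wholly below Model, as did 12.7% of the others. With the length trend removed the median of the members was −0.25, with 56 of 57 below 0, and 18 were lower at an unadjusted p under 0.05, as were 5.44% of all features.

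**Figure D4:**
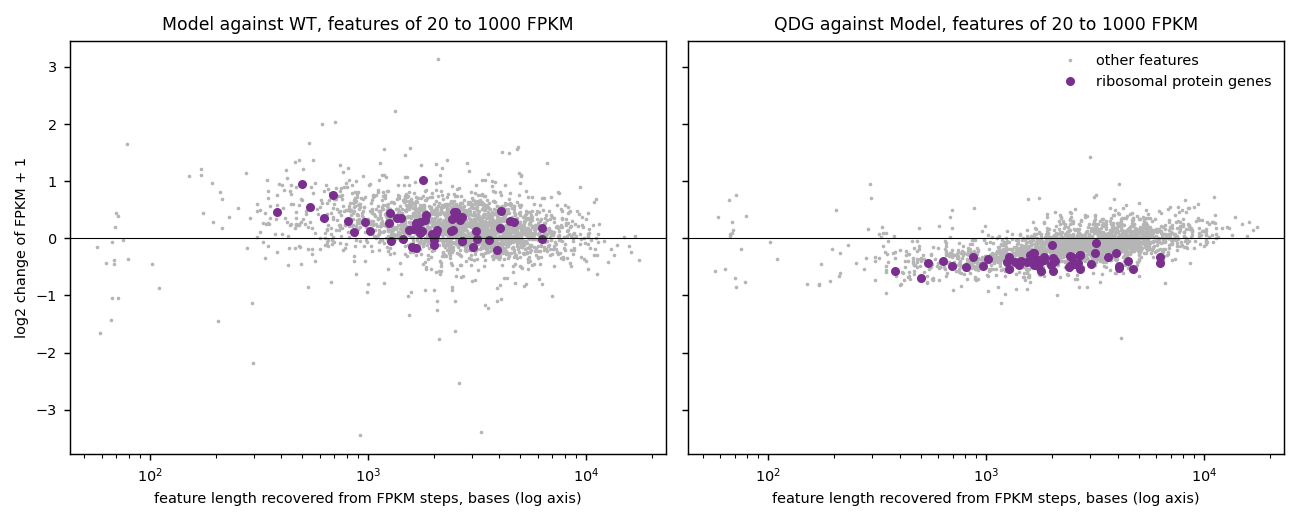
Log2 difference of FPKM + 1 against recovered feature length (log axis) for features of 20 to 1000 FPKM, ribosomal protein genes in purple and others in grey, for Model against WT (left) and QDG against Model (right). On the right all members lie below 0, although Rpl3 is above 0 after quantile normalization, while the other features approach 0 as length increases, with medians of −0.46 and 0.01 at 4000 bases or more.

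Members with the smallest p included Rpl18, Rps14, Rps15a and Rps19. Rpl18 (ENSMUSG00000059070), of the large subunit, stood at 97.6, 99.4 and 112 FPKM in Model and 83.9, 68.4 and 68.4 in QDG, beside 98.5, 81.5 and 93.1 in WT. Rps14 (ENSMUSG00000024608), whose loss underlies the anaemia of a form of myelodysplastic syndrome, stood at 204, 200.4 and 241 FPKM in Model and 169.9, 142 and 141 in QDG, beside 223, 179.7 and 189 in WT. Their log2 differences were −0.48 (SE 0.13) and −0.51 (SE 0.14), both with limma adjusted p = 0.289 and no overlap between the groups.

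Rps15a (ENSMUSG00000008683), the member of greatest recovered length, stood at 32.1, 30.6 and 36.0 FPKM in Model and 27.7, 22.9 and 21.7 in QDG, with 32.5, 26.5 and 27.3 in WT. Rps19 (ENSMUSG00000040952), the gene most often mutated in Diamond-Blackfan anaemia, stood at 75.4, 72.9 and 79.8 FPKM in Model and 62.4, 47.2 and 47.4 in QDG, with 66.7, 49.7 and 73.1 in WT. In both genes QDG 1 was the QDG library nearest to Model, and the log2 differences were −0.44 (Rps15a) and −0.54 (Rps19).

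Members with known roles outside the ribosome or in signalling lay on the same side. Rps3 (ENSMUSG00000030744), which lines the entry channel for messenger RNA and also takes part in DNA repair, stood at 111, 100.1 and 107 FPKM in WT, 131, 126 and 134 in Model and 118, 93.3 and 88.2 in QDG. Rpl11 (ENSMUSG00000059291), the partner of Rpl5 at Mdm2, stood at 123, 93.0 and 149.9 FPKM in WT, 151, 146 and 171 in Model and 132, 101.2 and 92.9 in QDG. The log2 differences of QDG against Model were −0.39 for Rps3, −0.53 for Rpl11, −0.29 for Rps6, −0.29 for Rpl13a and −0.25 for Rpl5, with limma adjusted p of 0.298 to 0.471. The groups overlapped for Rpl13a and Rpl5 and did not for the other 3. Rplp1 had the largest log2 difference of all members, −0.69 (SE 0.26; limma adjusted p = 0.312), and Rpl3, a protein beside the peptidyl transferase centre, the smallest, −0.08, which was above 0 after quantile normalization.

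**Figure D5:**
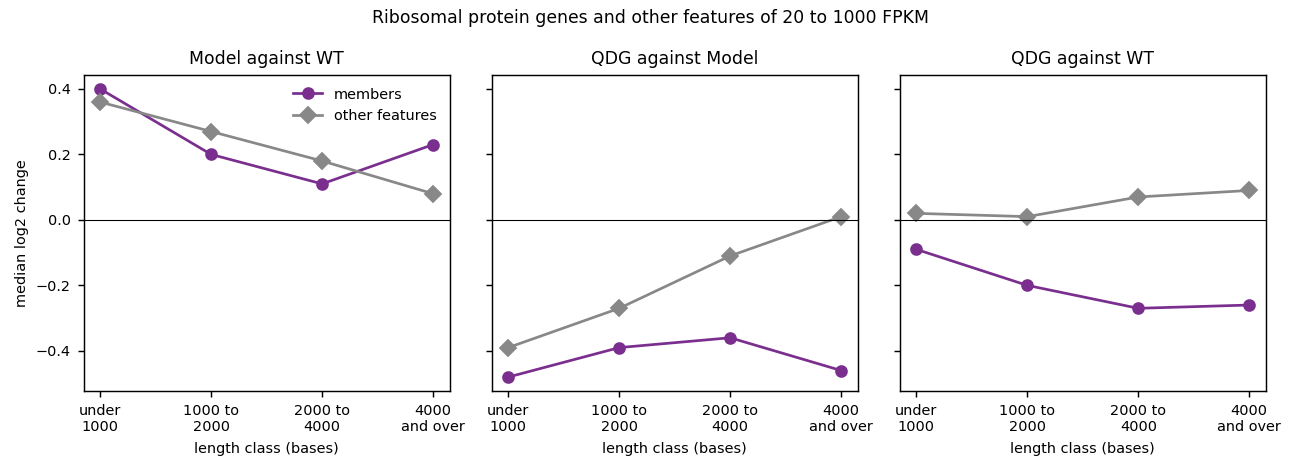
Median log2 difference of ribosomal protein genes (circles) and other features (diamonds) of 20 to 1000 FPKM in 4 classes of recovered length, for each comparison. Transcript length itself was not matched. In QDG against Model the members' medians stay between −0.48 and −0.36 while those of other features run from −0.39 to 0.01.

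The count at an unadjusted p under 0.05 depended on single libraries and on the scaling. It was 11 without Model 3, 8 without QDG 2 and 9 without QDG 3, against 34 with all libraries. The share of all features lower at that p went from 9.64% to 5.14%, 4.77% and 4.57%. The count was 31 without Model 1 (9.44% of all features), 41 without Model 2 (9.25%) and 40 without QDG 1 (9.57%). Without WT 1, WT 2 and WT 3 it was 39, 37 and 37 (9.97%, 10.9% and 11.3%). With only the QDG and Model groups fitted it was 44 (12.6%). It was 8 after quantile normalization (6.20% of all features) and 17 with an equal sum of FPKM (3.86%). With a library left out, the median of the members moved between −0.31 (without Model 3) and −0.51 (without QDG 1).

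The comparison of QDG with WT asks how treated hypertensive kidneys stood beside normal ones, and it shares its libraries with both others. No member passed the test, 0 of 57 against 2.47% of all features (limma, adjusted p), and the lowest adjusted p was 0.111, for Rpl14. At an unadjusted p under 0.05, 11 members (19.3%) were lower in QDG, against 9.51% of all features, and 0 were higher, against 11.8%; voom gave 1 adjusted call (Rpl5, lower) with total scaling and 0 with median ratios. The median log2 difference was −0.19 (range −0.61 to 0.44) against −0.00 over all features, with 47 members below 0 (50.1% of all features were) and 10 above. QDG lay wholly below WT for 9 members (15.8%, against 12.5%) and wholly above for 0 (against 15.2%). The count of 11 was 2 without WT 1, 3 without QDG 2 and 3 without QDG 3, where 6.10%, 5.82% and 7.04% of all features were lower, and 20 without QDG 1 (6.61%) and 24 after quantile normalization (11.5%). At 20 to 1000 FPKM the members' median was −0.20 and that of other features 0.06.

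Rpl14, Rpl5, Rps6, Rpl30 and Rps14 had the smallest p, and for each the QDG values lay wholly below the WT values. Their log2 differences were −0.55 (SE 0.17), −0.46 (SE 0.15), −0.44 (SE 0.15), −0.61 (SE 0.21) and −0.38 (SE 0.14), with limma adjusted p of 0.111, 0.125, 0.133, 0.14 and 0.158. Rpl30 (ENSMUSG00000058600), which as a free protein regulates its own splicing in yeast, stood at 74.1, 60.6 and 67.6 FPKM in WT, 67.2, 49.2 and 66.5 in Model and 57.5, 46.4 and 31.1 in QDG. The value of QDG 3 was the lowest of the 9 by a wide margin. On the other side of 0 were Rpl7a at 0.44, Rps29 at 0.28, Rplp1 at 0.25, and Rpl15 and Rpl38 at 0.12 each, of which Rps29, Rplp1 and Rpl38 were at −0.00, −0.00 and −0.09 without WT 2. These 5 were also among the 10 with the smallest p in Model against WT, where WT is the shared group. Subunit medians were −0.15 for the large subunit, −0.25 for the small subunit and 0.01 for the stalk.

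Departures of members from the family's median varied less than the members' own values. Subtracting that median takes out what the members share in a library, its scaling included. A smaller SD therefore does not by itself show steady proportions, and no like figure was made for other features. The departure of a member from the members' median in each library had an SD over the 9 libraries of 0.12 (median over members, log2), against 0.25 for the members' own log2 values, and it was under 0.15 for 34 of 57. Over 0.25 were 8 members: Rpl7a at 0.56, Rplp1 at 0.38, Rps27a and Rps29 at 0.36, Rpl30 and Rps12 at 0.28, and Rpl5 and Rpl24 at 0.26. Rplp1 made up 5.63%, 5.17% and 8.80% of the family's summed FPKM in WT, 10.02%, 10.2% and 10.3% in Model and 9.11%, 8.53% and 7.69% in QDG. Rps6 made up 2.96%, 3.17% and 2.19% in WT, 2.06%, 2.05% and 2.06% in Model and 2.04%, 2.23% and 2.47% in QDG. Rpl5 made up 1.36%, 1.61% and 1.03% in WT, 1.01%, 0.872% and 0.952% in Model and 0.996%, 1.06% and 1.11% in QDG. For these 3 genes WT 1 and WT 2 stood apart, with Rplp1 low and Rps6 and Rpl5 high, while WT 3 lay nearer to the Model and QDG libraries.

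Rps27a (ENSMUSG00000020460) varied widely within WT and Model. It encodes a small-subunit protein fused to ubiquitin, which is cut off after translation. It stood at 74.2, 99.6 and 128 FPKM in WT, 70.4, 104 and 150.4 in Model and 69.7, 75.4 and 78.7 in QDG, and its r with the mean of the other members, 0.44, was the lowest together with that of Rpl5. The rat annotation names 29 pseudogene entries after it, and the part of shared reads in this spread was not tested.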

How the data were processed

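The authors deposited 1 value per feature for each of 9 kidney libraries (3 per group), made from RNA depleted of ribosomal RNA, per the labels' protocols. The unit of the deposited values is not written with them and was taken as FPKM because the values move in whole-read steps that depend on feature length and library. Recovered reads were called whole within 0.0001 read or a relative 2e-07, with lengths whole within 0.05 base. limma is named in the submitters' processing notes. For the aligner, counter, strand setting, build and annotation, nothing is stated in the sources used here.

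Tests used limma 3.58.1 in R 4.3.3, with a trend, on log2(FPKM + 1), so differences of low genes are understated. All 9 samples were fitted, features averaging 1 FPKM or more entered, and p-values were adjusted over all of them by Benjamini-Hochberg. The threshold was 0.05. The fits were tested on simulated data. Because only FPKM were deposited, voom on recovered reads was an alternative: it called 882 (total scaling) and 1102 (median ratios) features in Model against WT, 0 and 0 in QDG against Model, and 386 and 427 in QDG against WT. Other alternatives were the pseudocount, the filter, quantile normalization, the groups fitted, a replicate block, a length trend and leaving out each library.

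The members and lists were chosen with earlier results of these data known. Values per sample were given for the 10 members with the smallest p in Model against WT, the 5 in each other comparison, up to 5 of opposite sign, the 3 highest and 3 lowest, the stalk genes, and Rps6, Rpl5, Rpl11, Rpl13a, Rps3 and Rps19. An item that this rule selects is not reported here by name, though it stays in the counts and medians. Rpl3 and Rps27a were named after their values were seen. Lists of other pathways and cell types were by symbol, and 0 of their genes could be paired with identifiers, so they were not analysed here.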

Additional observations from a re-analysis of the deposited data

How the results depend on the processing

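Of 703 repeats of 37 named log2 differences, 682 kept sign and side of the threshold, 15 kept sign and passed it, and 6 changed sign. Of the last, QDG against Model for Rpl3 was 0.11 after quantile normalization and 0.02 with an equal sum of FPKM. The others were in QDG against WT, where leaving out a library gave −0.00 to 0.56 for Rps29, −0.00 to 0.53 for Rplp1 and −0.09 to 0.29 for Rpl38. Members called in Model against WT numbered 0, but 1 with a mean of at least 5 FPKM (Rplp1), 2 after quantile normalization (Rpl4 and Rpl5, both lower) and 1 with voom and median ratios (Rplp1), where 13.2%, 5.86% and 9.04% of all features were called. In QDG against WT they numbered 0, but 3 after quantile normalization (Rpl5, Rpl14 and Rps6), 1 with voom and total scaling (Rpl5) and 1 with the length trend removed (Rpl14), where 4.23%, 3.17% and 4.32% of all features were called. Quantile normalization moved the members' median log2 difference to −0.02 in Model against WT and to −0.20 in QDG against Model. Recovered reads gave members' shares of 2.15% in WT, 2.31% in Model and 1.84% in QDG, and quantile normalization gave 2.83%, 2.88% and 2.51%. The causes were not tested. Scaling to an equal sum of FPKM, chosen after seeing the data, called 0 members and gave medians of 0.13, −0.30 and −0.17 in the 3 comparisons in the order above.

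Leaving out each library gave 0 to 6 calls in Model against WT (6 without WT 3), 0 in QDG against Model and 0 to 2 in QDG against WT (2 without WT 3: Rpl5 and Rps12). Without WT 3 these were 10.5% and 3.51% of members, where 12.5% and 6.36% of all features were called. The medians ran from 0.12 to 0.28, −0.51 to −0.31 and −0.31 to −0.12, and the shares from 2.42% to 2.87% in WT, 3.00% to 3.10% in Model and 2.28% to 2.57% in QDG. Same-numbered libraries correlated at −0.33 to 0.14, so the numbers gave no pairing. With the replicate as a block, 0 members were called in each comparison, and all features called numbered 533, 0 and 154 against 963, 0 and 301 without it.

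With 3 libraries a group, a member's log2 difference had a 95% interval of about 0.36 on either side (median over members).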
